A study of Homo sapiens with 16 samples.

Results

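The core spliceosome components described here are 35 genes that encode the proteins of the small nuclear ribonucleoproteins (snRNPs) and the main remodelling factors of the major spliceosome. They were chosen by gene symbol, and all 35 were found among the 55510 symbols counted and passed the filter on low counts, as did 22007 symbols in all. Their levels were measured by RNA sequencing of poly-A RNA from CAL51 treated with CC-671. CAL51 is an established line of human triple-negative breast cancer cells. CC-671 inhibits TTK, a kinase of the spindle checkpoint, and CLK2, a kinase of the SR proteins that guide splicing.

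There were 6 groups, all of CAL51 cells at passage 10 in DMEM with fetal bovine serum: DMSO vehicle for 6 h (2 libraries), CC-671 at 3 µM for 6 h (3 libraries), CC-671 at 10 µM for 6 h (3 libraries), and the same 3 treatments for 24 h (2, 3 and 3 libraries). Libraries within a group are biological replicates by their labels, so p-values cover library-to-library spread and no wider variation. That spread was estimated for each gene over all 6 groups and moderated by all genes tested. The groups were not equally tight. Between libraries at 10 µM and 6 h, the chi-square per gene (squared count difference over that from counting alone) was 11 to 19.1. At 24 h that dose had 2.91 to 3.41. A shared spread can thus be too narrow for the former and too wide for the latter. All results come from 1 cell line, and both doses at a time point were compared with the same 2 DMSO libraries. In RNA from whole cultures, fewer cells of a type and less RNA per cell cannot be told apart.

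The spliceosome removes introns in steps. The U1 snRNP binds the start of an intron, while the U2AF heterodimer and then the U2 snRNP bind near its end. The tri-snRNP of U4, U6 and U5 joins, helicases and the Prp19 complex remodel the RNA and protein contacts, and the catalytic core forms around PRPF8. A ring of Sm proteins encircles the U1, U2, U4 and U5 RNAs.

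The depth at genes ranged from 104609173 to 123789361 read pairs. Pairs outside annotated exons made up 3.78 to 4.24% of all pairs in the DMSO libraries and 5.01 to 6.22% in the treated ones; the part of this shift in the results below was not tested. Of 7 epithelial markers, KRT7 and CLDN4 were low (0.404 ± 0.1 and 1.71 ± 0.025 CPM) and the other 5 lay between 35.2 and 639 CPM, with EPCAM at 284 ± 2.8 and KRT18 at 546 ± 8.5 CPM (counts scaled to the library total, here without TMM factors) in DMSO at 6 h (SD, n = 2). The hormone receptor genes ESR1 and PGR were near 0 (0.0122 ± 0.0056 and 0.0246 ± 0.012 CPM), whereas ERBB2 RNA was present at 177 ± 7.8 CPM in DMSO and 90.7 ± 3.3 CPM at 3 µM after 6 h (n = 3). Of 8 leukocyte markers, MS4A1 was at 0 in every library, CD3E had group means of at most 0.00892 CPM, and the summed level of the 8 ranged from 6.6 to 13.0 CPM, most of it PTPRC. The mesenchymal list of 4 was also expressed (summed level 1560 to 2290 CPM, with FN1 at 1420 ± 140 and VIM at 219 ± 8.4 CPM in DMSO at 6 h). The 4 matched endothelial markers of 5 summed to 8.87 to 18.9 CPM and the 7 fibroblast markers to 267 to 342 CPM. Several of these markers moved with treatment. At 6 h, 4 of 5 tested leukocyte markers rose at each dose (CD14 from 0.147 ± 0.032 CPM in DMSO to 2.7 ± 0.21 CPM at 10 µM), and 1 fell at 10 µM. PTPRC stood at 9.59 ± 0.11 CPM in DMSO and 8.25 ± 0.65 CPM at 10 µM. Of 5 tested fibroblast markers, 3 rose and 1 fell at each dose at 6 h. At 24 h, 5 of 5 tested fibroblast markers fell at each dose, 2 (3 µM) or 3 (10 µM) of 3 tested endothelial markers fell, and 3 of 4 mesenchymal markers fell at each dose. The other mesenchymal marker, VIM, rose, from 206 ± 4.9 CPM in DMSO to 321 ± 6.7 CPM at 3 µM and 356 ± 3.2 CPM at 10 µM. Of the 7 epithelial markers, 3 rose in each comparison with DMSO, and 1 fell, or 2 at 10 µM and 24 h. The part of these markers in the results below was not tested.

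Levels below are CPM, with library totals scaled by TMM factors, and are comparable for 1 gene across libraries. A gene rose or fell where edgeR's quasi-likelihood test, adjusted over all genes tested, gave an adjusted p under 0.05. Log2 fold changes are from that fit, ± SE. Libraries without overlap were common among the members. Against DMSO at 6 h, only SNRNP200, SNRPD1, SNRPF and U2AF1 overlapped at 3 µM, and SNRNP200 and SNRPG at 10 µM. Overlap was not counted over all genes, so it cannot be read as a trait of the members. The CPM of single members ranged from 29.4 (SNRPA1, 10 µM, 6 h) to 709 (SF3B1, 10 µM, 6 h), so every member was well covered in every library. Per kilobase of exon in DMSO at 6 h, the highest levels were those of SNRPB at 146 ± 3.1 CPM per kb and SF3B5 at 144 ± 6.5 (SD, n = 2), which did not differ beyond their spread. SNRPD2 followed at 123 ± 7.8 CPM per kb, and PRPF3 (12.7 ± 0.067) and DHX8 (8.36 ± 0.062) were lowest. This order depended on the length used: U2AF1 ranked 31 by the union of its exons and 7 by its longest transcript.

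The core genes moved in both directions at every dose and time. At 3 µM and 6 h, 18 of 35 members rose and 13 fell, against 31.6% rising and 31.6% falling among all genes tested. At 10 µM and 6 h, 18 rose and 16 fell, against 34% and 33.6% of all genes. At 3 µM and 24 h, 10 rose and 16 fell, against 29.7% and 30.9%. At 10 µM and 24 h, 9 rose and 17 fell, against 31.3% and 32.3%. Without TMM factors the 24 h counts became 17 rising and 7 falling at 3 µM, and 17 rising and 9 falling at 10 µM. That setting raised the median of all genes by 0.101 and 0.111 on the log2 scale, and the share of higher calls among all calls moved from 48.9 to 62.9% and from 49.2 to 62.3%.

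Most shifts were modest. The median log2 fold change of the members was 0.14 at 3 µM and 0.10 at 10 µM after 6 h, and −0.02 and −0.06 after 24 h, against medians of 0.02, 0.01, 0.00 and 0.01 for all genes. The median absolute log2 fold change at 6 h was 0.31 and 0.33 in members and 0.34 and 0.39 in all genes. At 24 h it was 0.14 and 0.15 in members and 0.31 and 0.34 in all genes. A called change of at least 0.5 on the log2 scale was seen in 7 and 11 members at 6 h and in 3 members at each dose at 24 h, against 29.9, 36, 25.7 and 29.5% of all genes.

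**Figure D1:**
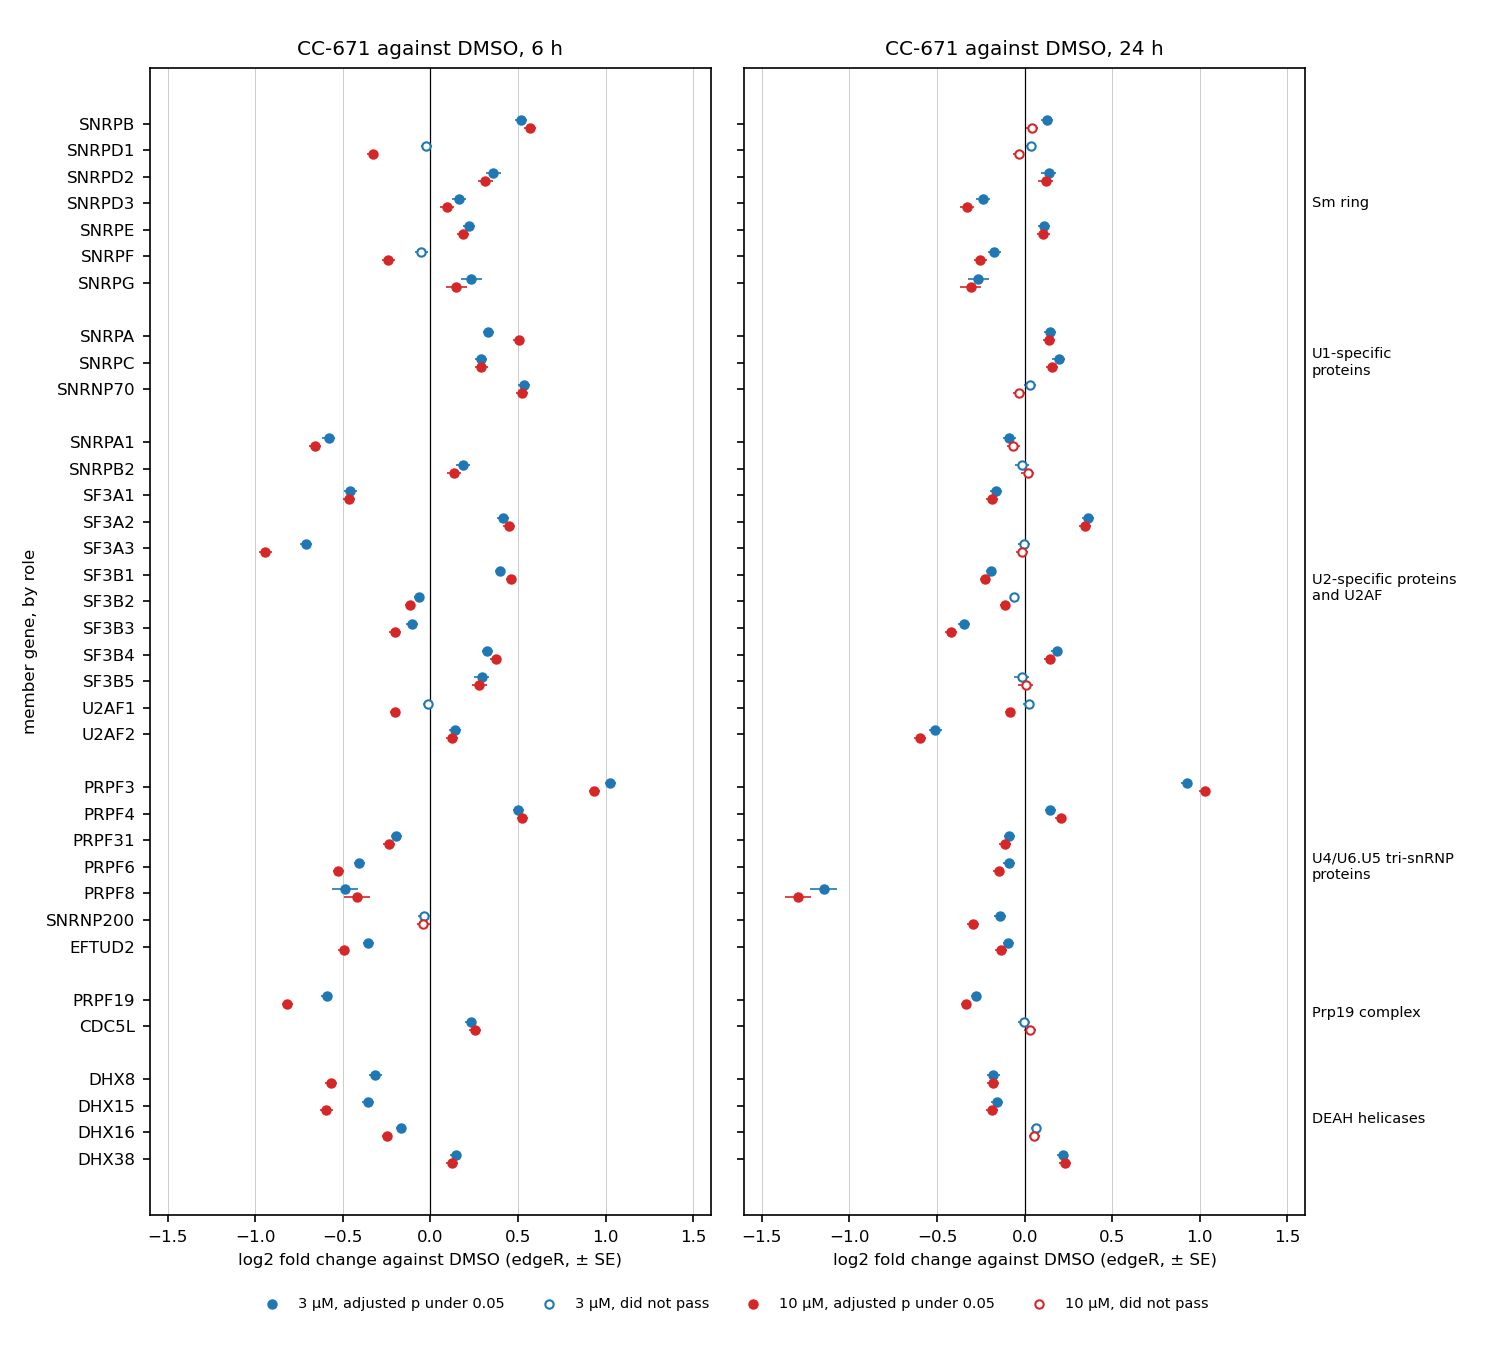
Log2 fold changes (± SE) of the 35 genes against DMSO at 6 h (left) and 24 h (right), at 3 µM (blue) and 10 µM (red), grouped by role. Filled points passed an adjusted p under 0.05. PRPF3 lies between 0.93 and 1.03 in all 4 comparisons, while PRPF8 reaches −1.30 at 10 µM and 24 h.

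Among the tri-snRNP proteins, PRPF3 and PRPF4, which bind each other on the U4/U6 RNA duplex, rose while most of the other members of this group fell. Of its 7 genes, 2 rose and 4 fell at both doses at 6 h, and 2 rose and 5 fell at both doses at 24 h. As shares, 28.6% rose and 57.1% fell at 6 h, and 28.6% rose and 71.4% fell at 24 h. The all-gene shares given above are the background of this and each role group below. They were 31.6 to 34% in either direction at 6 h and 29.7 to 32.3% at 24 h, so the share rising here was near or below them. The 5 falls at 24 h, without TMM factors, became 1 (3 µM) and 2 (10 µM). At 3 µM they became 2 without DMSO replicate 1, or with the 1 CPM filter, and 3 without DMSO replicate 2 or 3 µM replicate 2. Among 13 other tri-snRNP and B complex genes, described further on, 9 rose at each dose at 6 h. PRPF3 stood at 68.1 and 68.6 CPM in the DMSO libraries at 6 h. It stood at 137, 138 and 142 CPM with 3 µM and at 129, 129 and 134 CPM with 10 µM. Every treated library lay near double the vehicle level, with no overlap. At 24 h the DMSO libraries had 59.0 and 60.4 CPM, those at 3 µM 112, 113 and 115 CPM, and those at 10 µM 123, 121 and 121 CPM. The groups were again fully apart. PRPF3 thus rose by 1.03 ± 0.03 (2.04-fold, adjusted p = 1.45e-20) and 0.94 ± 0.03 (1.91-fold, adjusted p = 4.88e-20) at 3 and 10 µM after 6 h. The rises after 24 h were 0.93 ± 0.03 (adjusted p = 3.29e-19) and 1.03 ± 0.03 (adjusted p = 2.19e-20).

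PRPF4 had 99.9 and 97.0 CPM in DMSO at 6 h, 134.5, 143 and 140.2 CPM at 3 µM, and 140.2, 144 and 141 CPM at 10 µM. At 24 h it had 91.0 and 89.9 CPM in DMSO, 99.8, 100.2 and 100.5 CPM at 3 µM, and 104, 104 and 105 CPM at 10 µM. The treated libraries were above both vehicle libraries at both times, by less at 24 h. The log2 changes were 0.50 ± 0.03 and 0.53 ± 0.03 at 6 h and 0.15 ± 0.03 and 0.21 ± 0.03 at 24 h.

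PRPF8, the scaffold of the catalytic core, fell at all 4 conditions and had the deepest fall of any member at 24 h. In DMSO at 6 h its libraries stood at 505 and 544 CPM, against 412, 351 and 360.2 CPM at 3 µM and 403, 353 and 423 CPM at 10 µM. In DMSO at 24 h they stood at 597 and 614 CPM, against 279, 272 and 269 CPM at 3 µM and 247, 248 and 245 CPM at 10 µM. No treated library reached a vehicle library, and at 24 h every treated library was below every treated library of 6 h. The log2 change was −0.49 ± 0.07 (adjusted p = 9.15e-05) and −0.42 ± 0.07 (adjusted p = 0.000293) at 6 h. It was −1.15 ± 0.07 (0.451-fold, adjusted p = 3.35e-08) and −1.30 ± 0.07 (0.407-fold, adjusted p = 8.14e-09) at 24 h. PRPF8 had the widest SE among the members.

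The other U5 and bridging proteins moved less. PRPF6, which bridges U5 to U4/U6, changed by −0.40 ± 0.03 and −0.52 ± 0.03 at 6 h. EFTUD2, the GTPase beside PRPF8, changed by −0.35 ± 0.03 and −0.49 ± 0.03, and PRPF31, which holds U4/U6 to U5, by −0.19 ± 0.03 and −0.24 ± 0.03. At 24 h these 3 lay between −0.15 and −0.09, and no call of theirs held without TMM factors, where all 3 signs turned at 3 µM. At 3 µM the calls also ended without DMSO replicate 1 (all 3), DMSO replicate 2 or 3 µM replicate 2 (PRPF6 and PRPF31), or 3 µM replicate 3 (PRPF31). SNRNP200, the helicase that unwinds U4/U6, did not pass at 6 h (−0.04 ± 0.04 at both doses) and fell at 24 h (−0.14 ± 0.04 and −0.29 ± 0.04). The fall at 3 µM did not pass without TMM factors (−0.04, adjusted p = 0.366, range over alternatives 6.57e-06 to 0.366). PRPF31 shares 855 exonic bases with genes on the opposite strand and EFTUD2 shares 538, so reads at those bases are uncertain if counting ignored strand.

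**Figure D2:**
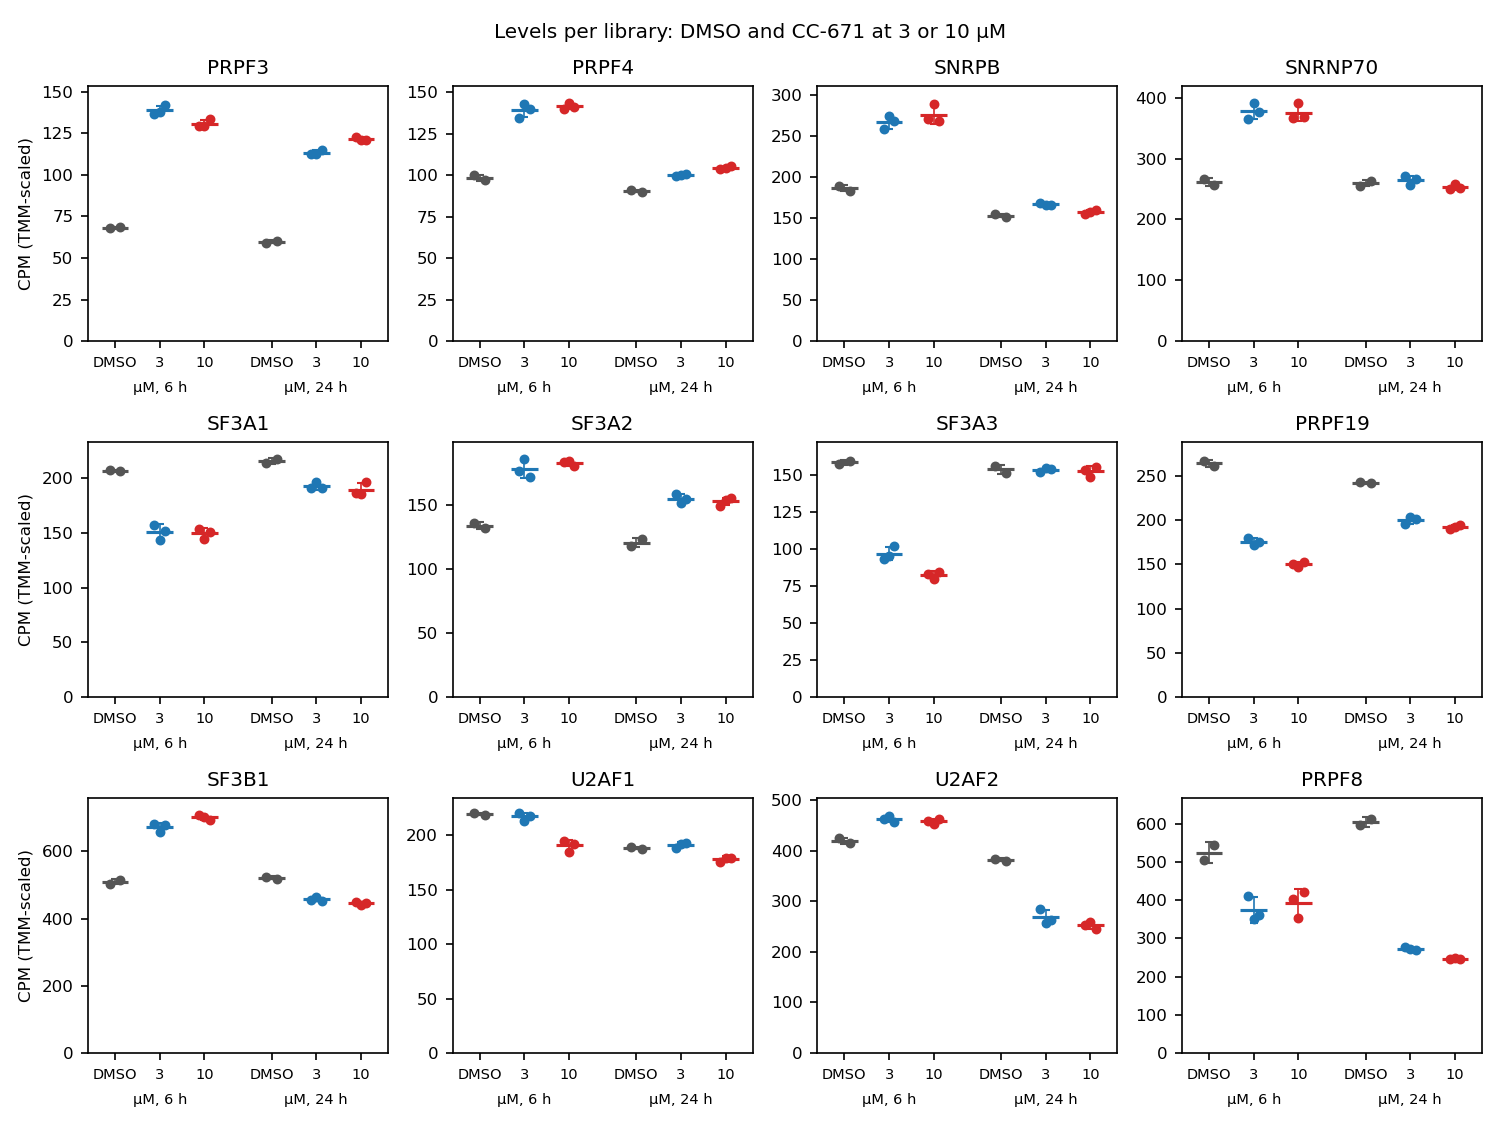
Level in CPM of 12 members in each library (points), with the group mean (line) and SD (bar), for DMSO (grey), 3 µM (blue) and 10 µM (red) at 6 h and 24 h; each axis starts at 0. PRPF3 doubles at both times, SF3A3 falls at 6 h and stands at the vehicle level at 24 h, and PRPF8 is lowest at 24 h.

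The 12 U2 and U2AF genes went both ways. At 6 h, 6 rose at each dose and 5 (3 µM) or 6 (10 µM) fell, and at 24 h 2 rose at each dose and 5 or 6 fell. The 5 falls at 3 µM and 6 h became 3 without DMSO replicate 2 or with the 1 CPM filter, and without TMM factors 5 rose and 3 fell at each dose at 24 h. The 3 subunits of SF3A, a heterotrimer of the U2 snRNP, differed from each other. SF3A3 had 157 and 159.6 CPM in DMSO at 6 h, 93.35, 95.2 and 102 CPM at 3 µM, and 82.9, 80.0 and 84.6 CPM at 10 µM. All 6 treated libraries lay far below vehicle, and those at 10 µM lay below those at 3 µM. At 24 h the level was 156 and 152 CPM in DMSO, 152, 154 and 154 CPM at 3 µM, and 153.5, 149 and 155 CPM at 10 µM, and the groups overlapped. The log2 change of SF3A3 was −0.71 ± 0.04 (adjusted p = 3.49e-16) and −0.94 ± 0.04 (0.521-fold, adjusted p = 4.66e-19) at 6 h. At 24 h it was −0.00 ± 0.04 (adjusted p = 0.923) and −0.01 ± 0.04 (adjusted p = 0.755). Without TMM factors SF3A3 was called higher at 24 h, at 0.10 at both doses.

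SF3A2 went the other way. It had 136 and 132 CPM in DMSO at 6 h, 177, 187 and 173 CPM at 3 µM, and 184, 185 and 181 CPM at 10 µM. After 24 h there were 118 and 123 CPM in DMSO, 159, 152 and 155 CPM at 3 µM, and 149.8, 154 and 155.5 CPM at 10 µM. Treated libraries were above vehicle throughout, and the log2 rise was 0.41 ± 0.03 and 0.45 ± 0.03 at 6 h and 0.36 ± 0.03 and 0.34 ± 0.03 at 24 h (adjusted p = 6.51e-10 and 1.48e-09). SF3A1, the largest subunit, had 207 CPM in both DMSO libraries at 6 h and 143 to 157.5 CPM in the 6 treated ones. Its log2 change was −0.46 ± 0.04 and −0.47 ± 0.04 at 6 h and −0.16 ± 0.04 and −0.19 ± 0.04 at 24 h; the 24 h calls ended without TMM factors (−0.06 and −0.08). Across SF3A, 1 subunit thus rose and 2 fell at 6 h. SF3A2 shares 398 exonic bases with PLEKHJ1 on the opposite strand, and 2 pseudogene symbols of SF3A3 are counted separately.

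The promoters of SF3A2 and SF3A3, the pair that moved apart, are shown over the 100 bases before the RefSeq start (GRCh38.p14), read along the gene's strand. They lie at chr19:2236724-2236823 (plus strand) and chr1:37990023-37990122 (minus strand). Capitals mark the searched motifs CCGGAAG (the core of ETS factor sites), GGGCGG (the GC box) and GCATGCGC (the core of NRF1 sites), on either strand.
SF3A2: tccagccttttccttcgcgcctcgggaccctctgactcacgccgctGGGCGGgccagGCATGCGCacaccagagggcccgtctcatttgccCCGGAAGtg
SF3A3: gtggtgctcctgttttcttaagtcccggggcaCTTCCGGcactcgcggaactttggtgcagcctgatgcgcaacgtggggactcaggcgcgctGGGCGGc
Both hold CCGGAAG and GGGCGG. A match is a description of letters, not a shown binding site.

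SNRPA1, which binds U2 RNA together with SNRPB2, fell at 6 h. It had 48.45 and 45.9 CPM in DMSO, 31.8, 31.5 and 31.4 CPM at 3 µM, and 30.4, 29.4 and 29.9 CPM at 10 µM. After 24 h there were 42.6 and 40.8 CPM in DMSO, 38.3, 39.3 and 40.2 CPM at 3 µM, and 39.25, 40.9 and 39.6 CPM at 10 µM. The groups were fully apart at 6 h and close together at 24 h. On the log2 scale it changed by −0.58 ± 0.04 (adjusted p = 5.97e-14) and −0.66 ± 0.04 (adjusted p = 2.67e-15) at 6 h, and −0.09 ± 0.04 (adjusted p = 0.0413) and −0.06 ± 0.04 (adjusted p = 0.127) at 24 h. The call at 3 µM and 24 h ended in 7 of 13 alternatives, 1 of which turned the sign, and these included leaving out DMSO replicate 1 or 3 µM replicate 1 or 2 (adjusted p 0.0297 to 0.767). Its partner SNRPB2 rose at 6 h, by 0.19 ± 0.04 and 0.13 ± 0.04, the latter not without DMSO replicate 2 (adjusted p up to 0.0993, from 0.000235).

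In SF3B, the U2 complex that grips the branch site, SF3B1 rose early and fell late. SF3B1, the branch-site subunit often mutated in blood cancers, had 504 and 515 CPM in DMSO at 6 h, 681, 656 and 677 CPM at 3 µM, and 709, 702 and 693.5 CPM at 10 µM. At 24 h the level was 525 and 519 CPM in DMSO, 454, 464 and 453 CPM at 3 µM, and 448, 440.3 and 447 CPM at 10 µM. Treated libraries were above vehicle at 6 h and below it at 24 h without overlap. The log2 change was 0.40 ± 0.03 and 0.46 ± 0.03, then −0.19 ± 0.03 and −0.23 ± 0.03 (adjusted p = 1.54e-06 and 6.53e-08 at 24 h).

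SF3B3 was the SF3B subunit with the deepest fall at 24 h. It had 400.5 and 403 CPM in DMSO at 24 h, 315, 317 and 317 CPM at 3 µM, and 301, 294 and 305 CPM at 10 µM, with no overlap. On the log2 scale it changed by −0.34 ± 0.03 (adjusted p = 1.77e-09) and −0.42 ± 0.03 (adjusted p = 2.52e-11), after −0.11 ± 0.03 and −0.20 ± 0.03 at 6 h. The 3 µM call at 6 h ended without DMSO replicate 2 or with a stricter filter of 1 CPM in 5 libraries (adjusted p up to 0.166, from 0.00142). SF3B4 rose at all 4 conditions, between 0.14 and 0.37, and the single-exon gene SF3B5 rose at 6 h (0.29 ± 0.04 and 0.28 ± 0.04), with −0.02 ± 0.04 and 0.01 ± 0.04 at 24 h. SF3B2 lay between −0.12 and −0.06; its call at 3 µM and 6 h (adjusted p = 0.0465) ended in 9 of 13 alternatives (adjusted p 0.0147 to 0.219), among them leaving out either DMSO library or 3 µM replicate 2.

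The U2AF subunits, which read the end of the intron, were called in opposite directions at 10 µM and 6 h, and both fell at 10 µM and 24 h, U2AF2 by more. U2AF2, which binds the polypyrimidine tract, had 424 and 416 CPM in DMSO at 6 h, 463.5, 469 and 458 CPM at 3 µM, and 459, 453 and 462 CPM at 10 µM. After 24 h there were 384 and 379.9 CPM in DMSO, 285, 257 and 264 CPM at 3 µM, and 252.5, 259.9 and 245.0 CPM at 10 µM. It stood above vehicle in every treated library at 6 h and below it in every one at 24 h. The log2 change was 0.14 ± 0.03 and 0.12 ± 0.03 at 6 h (adjusted p = 0.00087 and 0.00257). It was −0.51 ± 0.03 (0.703-fold, adjusted p = 6.93e-13) and −0.60 ± 0.03 (0.661-fold, adjusted p = 1.57e-14) at 24 h. U2AF1, which reads the final AG, had −0.01 ± 0.03 and −0.20 ± 0.03 at 6 h and 0.02 ± 0.03 and −0.08 ± 0.03 at 24 h. Its fall passed at 10 µM, and at 24 h that call ended in 5 of 13 alternatives (adjusted p 0.00381 to 0.414), among them leaving out either DMSO library or 10 µM replicate 1, and turned sign without TMM factors (0.03).

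All 3 U1-specific genes rose at 6 h at both doses, against 31.6 and 34% of all genes. SNRNP70, the U1-70K protein that also contacts SR proteins, had 266 and 257 CPM in DMSO at 6 h, 366, 392 and 377 CPM at 3 µM, and 367, 391 and 369 CPM at 10 µM. At 24 h it had 256 and 263 CPM in DMSO, 271.5, 256 and 266 CPM at 3 µM, and 250.1, 258 and 252 CPM at 10 µM. The groups were apart at 6 h and overlapped at 24 h. On the log2 scale it changed by 0.53 ± 0.04 (adjusted p = 2.36e-13) and 0.52 ± 0.04 at 6 h, and 0.03 ± 0.04 and −0.03 ± 0.04 at 24 h. SNRPA, which binds another stem-loop of U1 RNA, rose by 0.33 ± 0.03 and 0.50 ± 0.03 at 6 h and SNRPC, which steadies pairing with the 5′ splice site, by 0.29 ± 0.04 at both doses. Both still passed at 24 h, between 0.14 and 0.19.

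Of the 7 Sm ring genes, 5 rose and 0 fell with 3 µM for 6 h, and 5 rose and 2 fell with 10 µM. The share rising was 71.4% at each dose, against 31.6 and 34% of all genes. The 5 rises with 10 µM became 3 without DMSO replicate 2 or 10 µM replicate 2, with the replicate block, or when only the groups compared were fitted. SNRPB, which encodes SmB, rose most. It had 189 and 184 CPM in DMSO at 6 h, 259, 275 and 269 CPM at 3 µM, and 271, 289 and 268 CPM at 10 µM. At 24 h the level was 154 and 151 CPM in DMSO, 169, 166 and 166 CPM at 3 µM, and 155, 157 and 160.4 CPM at 10 µM. The separation was wide at 6 h and narrow at 24 h. The log2 change was 0.52 ± 0.03 (adjusted p = 1.85e-13) and 0.57 ± 0.03 (1.48-fold, adjusted p = 2.01e-14) at 6 h and 0.13 ± 0.03 (adjusted p = 0.00223) and 0.04 ± 0.03 (adjusted p = 0.271) at 24 h. SNRPD2 rose by 0.36 ± 0.04 and 0.31 ± 0.04 and SNRPE by 0.22 ± 0.04 and 0.19 ± 0.04 at 6 h. SNRPB shares 256 exonic bases with a same-strand transcript.

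The remaining Sm genes differed. At 6 h, SNRPD1 and SNRPF fell at 10 µM (−0.33 ± 0.03 and −0.24 ± 0.04), with −0.02 ± 0.03 and −0.05 ± 0.04 at 3 µM. At 24 h, 3 Sm genes rose and 3 fell at 3 µM, and 2 rose and 3 fell at 10 µM. The 3 rises at 3 µM became 1 without DMSO replicate 2. The 2 rises at 10 µM became 0 without DMSO replicate 2, 1 without DMSO replicate 1 or 10 µM replicate 3, and 4 without TMM factors. The 3 with falls at both doses were SNRPD3 (−0.24 ± 0.04 and −0.33 ± 0.04), SNRPG (−0.26 ± 0.06 and −0.31 ± 0.06) and SNRPF (−0.17 ± 0.04 and −0.25 ± 0.04, the former not passing without TMM factors). SNRPD3 and SNRPG had risen at 6 h, but their calls at 10 µM (0.10 ± 0.04 and 0.15 ± 0.06) each ended in 5 of 13 alternatives (adjusted p 0.0027 to 0.299 and 0.0015 to 0.341), among them leaving out DMSO replicate 2 or 10 µM replicate 2, and for SNRPG also 10 µM replicate 3. The SNRPG call at 3 µM (0.23 ± 0.06) ended without DMSO replicate 2 (adjusted p up to 0.0508, from 2.4e-07). The files list 14 pseudogene symbols for SNRPG, 9 for SNRPE and 4 for SNRPF, so reads of these short genes could be split, and SNRPD3 shares 306 exonic bases with GGT1.

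PRPF19, the ubiquitin ligase that names the Prp19 complex, fell at every condition, and CDC5L, its partner, rose at 6 h. PRPF19 had 267 and 261 CPM in DMSO at 6 h, 179.6, 172 and 175 CPM at 3 µM, and 150.3, 147 and 153 CPM at 10 µM. After 24 h there were 243 and 242 CPM in DMSO, 196, 204 and 201 CPM at 3 µM, and 189.5, 192 and 195 CPM at 10 µM. All treated libraries lay below vehicle, and at 6 h those at 10 µM lay below those at 3 µM. On the log2 scale it changed by −0.59 ± 0.03 (adjusted p = 6.58e-16) and −0.82 ± 0.03 (0.568-fold, adjusted p = 3.76e-19) at 6 h and −0.28 ± 0.03 and −0.34 ± 0.03 at 24 h. CDC5L rose by 0.23 ± 0.03 and 0.25 ± 0.03 at 6 h and had −0.00 ± 0.03 and 0.03 ± 0.03 at 24 h.

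Of the DEAH helicases, which drive remodelling between steps, 3 of 4 fell at 6 h at both doses (75.0%, against 31.6 and 33.6% of all genes). At 24 h 1 rose and 2 fell at each dose, which became 2 and 0 without TMM factors. DHX8, which releases the spliced RNA, changed at 6 h by −0.31 ± 0.04 and −0.57 ± 0.04, DHX15, which takes the spent spliceosome apart, by −0.36 ± 0.04 and −0.59 ± 0.04, and DHX16, which acts before the first step, by −0.17 ± 0.03 and −0.25 ± 0.03. DHX38, which acts between the catalytic steps, moved against them. It had 94.4 and 91.0 CPM in DMSO at 6 h, 100.4, 104 and 103 CPM at 3 µM, and 103, 98.9 and 101 CPM at 10 µM. At 24 h it had 94.1 and 95.2 CPM in DMSO, 110.1, 108 and 112 CPM at 3 µM, and 109, 112 and 111 CPM at 10 µM. It stood above vehicle in every treated library, by 0.14 ± 0.03 and 0.12 ± 0.03 at 6 h and 0.22 ± 0.03 and 0.23 ± 0.03 at 24 h (adjusted p = 1.27e-06 and 4.05e-07). DHX38 shares 776 exonic bases with opposite-strand genes. The falls of DHX8 and DHX15 at 24 h, −0.19 to −0.16, did not pass without TMM factors.

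Comparing 10 with 3 µM at 6 h, 12 members were lower at 10 µM and 1 was higher, against 12.9 and 12% of all genes. SNRPD1 had 147, 149 and 155 CPM at 3 µM and 119, 123 and 123 CPM at 10 µM, a difference of −0.31 ± 0.03 (adjusted p = 1.71e-08). DHX8 had 69.6, 69.0 and 71.9 CPM at 3 µM and 59.0, 55.7 and 62.05 CPM at 10 µM, a difference of −0.25 ± 0.03 (adjusted p = 2.34e-06). The 2 doses did not overlap for either gene, nor for SF3B1, SF3B2 and SNRPA1, which did not pass. SNRPA was the member that was higher, with 161, 165 and 163 CPM at 3 µM and 186, 189 and 176 CPM at 10 µM (0.17 ± 0.03, adjusted p = 6.05e-05); without 3 µM replicate 1 there were 2 such members. The other falls of at least 0.2 were in DHX15 (−0.24), SF3A3 (−0.23) and PRPF19 (−0.22).

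At 24 h the doses differed little. Of the members, 1 was higher and 2 were lower at 10 µM, against 2.49 and 3.85% of all genes; when only the groups compared were fitted, 2 were higher and 9 lower. Without TMM factors the share of higher calls among all calls went from 39.3 to 50.2%. PRPF3 had 112, 113 and 115 CPM at 3 µM and 123, 121 and 121 CPM at 10 µM (0.10 ± 0.03, adjusted p = 0.0213). SNRNP200 had 489, 485 and 480.1 CPM at 3 µM and 436, 435 and 436 CPM at 10 µM (−0.15 ± 0.03, adjusted p = 0.00386), and U2AF1 had 188, 192 and 193 CPM against 175, 179 and 179 CPM (−0.10 ± 0.03, adjusted p = 0.0172). The libraries of the 2 doses were apart for all 3 genes. They were also apart for members that did not pass, among them DHX16, EFTUD2, PRPF19, SF3B1 and SNRPF. The PRPF3 call ended without any 1 of 5 of the 6 libraries (all but 3 µM replicate 3) and the U2AF1 call without 3 µM replicate 2 or 3 or 10 µM replicate 1; adjusted p reached 0.101 and 0.0945, from 0.000238 and 0.000354. The 1 higher member thus became 0 without any of those 5, and the 2 lower became 1 without 3 µM replicate 3 or 10 µM replicate 1.

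The effect at 24 h was then set against the effect at 6 h in 1 model, and the 2 times share no library. At 3 µM, 9 members had a higher and 15 a lower effect at 24 h, against 25.6 and 23.7% of all genes. At 10 µM, 13 had a higher and 16 a lower effect, against 27.6 and 26.4%. Without TMM factors the share of higher calls among all calls moved from 51.9 to 61.9% and from 51.1 to 61.3%. SF3A3 had the most positive difference, 0.70 ± 0.05 (adjusted p = 3.82e-12) at 3 µM and 0.93 ± 0.05 (adjusted p = 8.46e-15) at 10 µM, followed by SNRPA1 at 0.49 ± 0.05 and 0.59 ± 0.05: both fell at 6 h and stood near vehicle at 24 h. PRPF8 was most negative, at −0.66 ± 0.11 (adjusted p = 0.000217) and −0.88 ± 0.11 (adjusted p = 1.57e-05), and U2AF2 followed at −0.65 ± 0.05 and −0.72 ± 0.05. These 4 genes passed in all 18 alternatives at both doses. PRPF3 and SF3A2 did not pass at either dose, with differences from −0.11 to 0.09.

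Set out by call at both times, 10 members rose at both at 3 µM (28.6% of members, against 17.2% of all genes) and 10 fell at both (28.6 against 18.4%). At 10 µM, 9 rose at both (25.7 against 18.8%) and 12 fell at both (34.3 against 19.4%). Of the members that rose at both times, all but SNRPD2 and SNRPE held both calls under every alternative. Most that fell at both times did not. Those that held were PRPF19 and PRPF8 at 3 µM, and PRPF19, PRPF8, SF3B3 and SNRPF at 10 µM. SF3B1, SNRPD3, SNRPG and U2AF2 rose at 6 h and fell at 24 h at both doses (11.4% of members, against 4.68% of all genes at 3 µM and 5.43% at 10 µM). Their 24 h falls held under every alternative, and the 6 h rises of SNRPD3 and SNRPG did not. The reverse, a fall at 6 h and a rise at 24 h, was seen in 0 of 35 members at either dose, against 4.0 and 5.06% of all genes. This count was not stable. Without TMM factors it was 2 at 3 µM (DHX16 and SF3A3) and 3 at 10 µM (also SNRPD1). DHX16 also had both calls at each dose with the 1 CPM filter or only the groups compared, and at 3 µM with limma-voom.

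**Figure D3:**
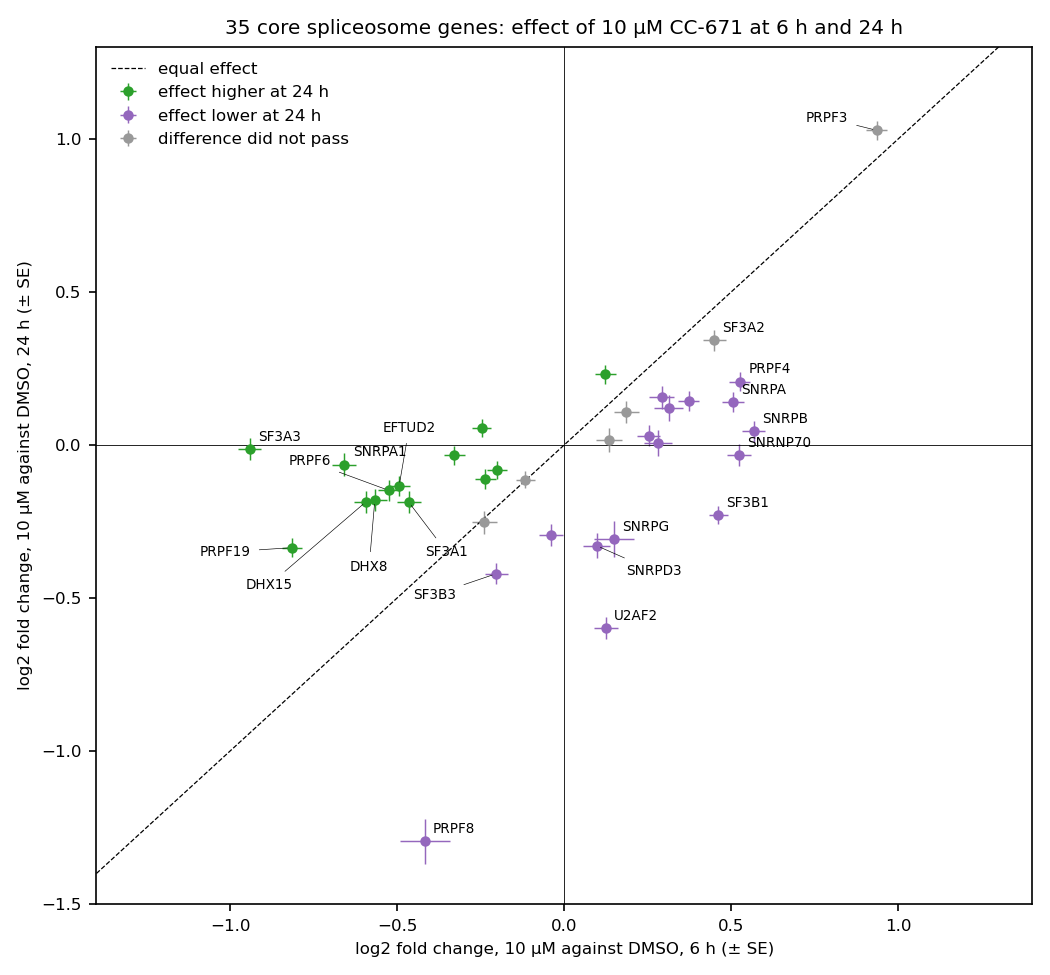
Log2 fold change (± SE) of each of the 35 genes at 10 µM against DMSO at 6 h (x axis) and at 24 h (y axis), coloured by the test of the difference between times (13 higher at 24 h, 16 lower, 6 did not pass). The dashed line marks equal effects: PRPF3 lies near it at the upper right, SF3A3 far above it and PRPF8 and U2AF2 far below.

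For U2AF2 and PRPF8, the members with the deepest falls at 24 h, the 100 bases before the RefSeq start (GRCh38.p14) lie at chr19:55654935-55655034 (plus strand) and chr17:1684868-1684967 (minus strand). SNRPB, which rose most in the Sm ring at 6 h, is shown beside them, at chr20:2470790-2470889 (minus strand). Capitals mark the motifs searched on both strands, which were those above and also the CCAAT box (read as ATTGG on the other strand), the E-box CACGTG and the TATAAA box. No motif searched contains another, and neighbouring GGGCGG matches can share letters.
U2AF2: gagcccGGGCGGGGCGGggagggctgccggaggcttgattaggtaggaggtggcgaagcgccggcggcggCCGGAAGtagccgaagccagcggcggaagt
PRPF8: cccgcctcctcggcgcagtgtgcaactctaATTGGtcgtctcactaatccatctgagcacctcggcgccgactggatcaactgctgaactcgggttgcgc
SNRPB: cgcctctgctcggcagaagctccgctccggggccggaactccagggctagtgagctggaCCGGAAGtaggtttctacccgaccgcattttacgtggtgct
U2AF2 and SNRPB hold CCGGAAG and PRPF8 holds a CCAAT box in these 100 bases.

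Over the whole RefSeq promoter (250 bases before to 50 after the start), 32 of 35 members were matched. CCGGAAG was in 18 of these (56.2%), against 10.7% of all 27305 promoters and 17.3% of the 10994 promoters of protein-coding genes tested here. GGGCGG was in 62.5%, against 44.6 and 67.9%, CCAAT in 34.4%, against 35.7 and 36.2%, and TATAAA in 3.12%, against 12 and 6.25%. CACGTG was in 6.25%, against 7.43 and 9.68%, and GCATGCGC in 6.25%, against 3.27 and 5.0%. Of the 18 members with CCGGAAG, 10 rose and 7 fell at 6 h at each dose, and of the 14 without it, 7 rose and 5 fell at 3 µM and 7 rose and 7 fell at 10 µM. At 24 h, 7 with it rose and 7 fell at 3 µM, and 6 rose and 7 fell at 10 µM. Of those without it, 2 rose and 8 fell at 3 µM, and 2 rose and 9 fell at 10 µM. Members that rose and members that fell both held it, and no link between motif and direction was tested.

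Exon number varied widely among the members, from 1 (SF3B5) to 45 (SNRNP200) in the longest coding transcript of GENCODE 29. Of the 13 members with 1 to 7 exons, 10 rose and 0 fell at 3 µM and 6 h, with a median log2 change of 0.23; among all tested coding genes in that range 44.4% rose and 24.3% fell. Of the 11 with 17 to 45 exons, 2 rose and 8 fell, with a median of −0.17, and among all coding genes in that range 13.6% rose and 61.7% fell. All tested coding genes followed the same order, with medians of 0.12, −0.07 and −0.29 for 1 to 7, 8 to 16 and 17 to 45 exons. Across the 35 members the correlation of exon number with log2 change was r = −0.37 (Spearman rho = −0.43) at 3 µM and r = −0.30 (rho = −0.35) at 10 µM, as a description over genes measured in the same libraries. Over 14004 coding genes r was −0.19 and −0.17, and rho was −0.34 and −0.32. For the effects at 24 h, r was −0.39 and −0.40 in the members (rho −0.28 and −0.27). Over all coding genes it was −0.085 and −0.098 (rho −0.125 and −0.135). SF3B1, with 25 exons, was 1 of the 2 that rose in the top range at 6 h, and PRPF3 has 16 exons.

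Vehicle cultures also shifted between times. Of the members, 16 were lower and 3 higher at 24 h than at 6 h in DMSO, against 9.55 and 11% of all genes. SNRPB fell from 189 and 184 CPM to 154 and 151 CPM (−0.29 ± 0.04, adjusted p = 2.73e-06) and SF3B5 from 103 and 97.0 CPM to 85.0 and 82.9 CPM (−0.25 ± 0.05, adjusted p = 0.000187). DHX8 rose from 87.7 and 86.8 CPM to 99.2 and 97.8 CPM (0.17 ± 0.04, adjusted p = 0.00171) and SNRNP200 from 474 and 492.5 CPM to 536 and 533 CPM (0.14 ± 0.04, adjusted p = 0.00906). The libraries of the 2 times did not overlap for these 4 genes, but this does not set them apart. Among all members, only DHX38, EFTUD2, PRPF6 and SNRNP70 overlapped between the times. Here too, no count of overlap over all genes was made. The 2 arms had 2 libraries each, and leaving out DMSO replicate 1 at 6 h, or replicate 1 or 2 at 24 h, reduced the 16 to 9, 10 or 8 and the 3 to 1. Of the members with 1 to 7, 8 to 16 and 17 to 45 exons, 8, 7 and 1 fell (61.5, 63.6 and 9.09%). Among all tested coding genes in these ranges, 16.7, 12.1 and 4.2% fell. The correlation of exon number with the change between times was r = 0.79 (rho = 0.75, n = 35), against r = 0.14 (rho = 0.23) over 14004 coding genes. Single libraries also differed by exon number. From DMSO replicate 1 to 2 at 6 h, SNRPD2 (3 exons) went from 207 to 189 CPM and PRPF8 (42 exons) from 505 to 544 CPM. SNRPE (5 exons, 32.8 to 33.1 CPM) and PRPF6 (21 exons, 122 to 117.5 CPM) went against this. The part of such library differences in this correlation, or in those at 6 h, was not tested.

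**Figure D4:**
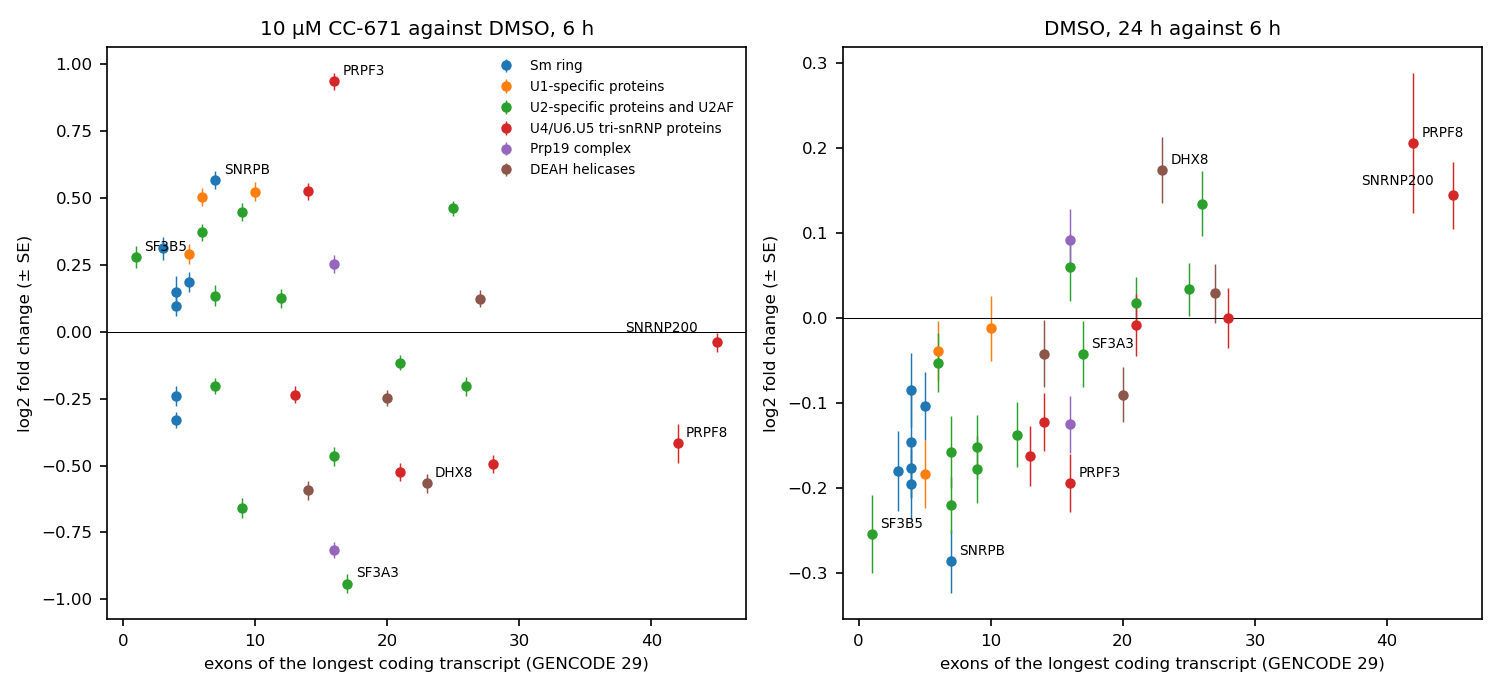
Exon number (x axis) against log2 fold change ± SE (y axis) of the 35 members, coloured by role, for 10 µM against DMSO at 6 h (left) and for DMSO at 24 h against 6 h (right). On the left the members with many exons lie mostly below 0 with wide scatter (r = −0.30); on the right the points climb with exon number (r = 0.79).

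Summed over the 35 members, the level was 6961 ± 7.1 CPM in DMSO at 6 h (SD, n = 2), 7124 ± 45 CPM at 3 µM and 6931 ± 36 CPM at 10 µM (n = 3). At 24 h it was 6854 ± 23 CPM in DMSO, 6206 ± 3.5 CPM at 3 µM and 5993 ± 35 CPM at 10 µM. The sum of the treated groups lay close to vehicle at 6 h and below it at 24 h, and no test was run on it. Much of the gap at 24 h lay in PRPF8 and U2AF2. In DMSO, 3 µM and 10 µM, PRPF8 had means of 605, 273 and 247 CPM, and U2AF2 of 382, 268.5 and 252.5 CPM. The median log2 change of the members was −0.02 and −0.06 at 24 h. Without TMM factors the 24 h sums were 6648, 6455 and 6276 CPM, the same order with smaller gaps.

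Beyond these 35, 7 lists held 82 other spliceosome genes, of which 81 were tested; 3 appear under older symbols. Of the 81, 39 rose and 24 fell at 3 µM and 39 rose and 31 fell at 10 µM after 6 h, and 28 rose and 29 fell, then 29 rose and 32 fell, after 24 h. As shares of the 81, 48.1% rose and 29.6% fell at 3 µM and 48.1% rose and 38.3% fell at 10 µM after 6 h, against the 31.6, 31.6, 34 and 33.6% of all genes given above. After 24 h, 34.6% rose and 35.8% fell, then 35.8% rose and 39.5% fell, against the 29.7, 30.9, 31.3 and 32.3% of all genes. With no TMM factors the 24 h counts were 45 rising and 18 falling at 3 µM and 44 rising and 19 falling at 10 µM. The same all-gene shares are the background of each list below. In the list of Prp19-related and catalytic factors, the largest changes at 6 h were falls. ISY1, a Prp19-related protein, changed by −1.27 ± 0.05 and −1.53 ± 0.05 and the helicase DHX35 by −1.04 ± 0.05 and −1.33 ± 0.05. Of that list, 8 of the 20 genes rose and 6 (3 µM) or 9 (10 µM) fell. At 24 h 11 of the 20 rose and 4 fell, with BUD31 at 0.65 ± 0.04 and 0.67 ± 0.04 and SYF2 at 0.56 ± 0.05 and 0.63 ± 0.05.

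Genes of snRNP assembly, which load the Sm ring onto snRNA, had more falls than rises: 3 of 15 rose and 9 fell (60.0%) at 3 µM and 6 h, against 31.6% of all genes falling. At 10 µM 3 rose and 10 fell, and at 24 h 2 rose and 11 fell at each dose. Over the alternatives the falls numbered 9 to 11 at 6 h and 6 to 11 at 24 h; without TMM factors 4 rose at 24 h at each dose and 8 (3 µM) or 6 (10 µM) fell, and the 2 rises at 10 µM became 1 without DMSO replicate 2. WDR77, the partner of the Sm methyltransferase PRMT5, changed by −1.03 ± 0.04 and −1.33 ± 0.04 at 6 h and −0.59 ± 0.04 and −0.65 ± 0.04 at 24 h. SNUPN, the import adaptor of snRNPs, changed by −0.78 ± 0.05 and −0.97 ± 0.05 at 6 h, and GEMIN4 of the SMN complex by −0.62 ± 0.04 and −0.74 ± 0.04 at 24 h. Of the minor spliceosome genes, 7 of 8 rose (87.5%) and 1 fell at 6 h at each dose, against 31.6 and 34% of all genes rising; over the alternatives 5 to 7 rose. SNRNP35 rose by 0.76 ± 0.05 and 0.83 ± 0.05 and SNRNP48 by 0.72 ± 0.04 and 0.71 ± 0.04 at 6 h. At 24 h 5 (3 µM) or 4 (10 µM) of the 8 rose and 2 fell, and the 5 became 3 without either DMSO library, with ZRSR2 at 0.32 ± 0.04 and 0.41 ± 0.04, RNPC3 at 0.31 ± 0.11 at 3 µM and SNRNP25 at −0.49 ± 0.04 at 10 µM.

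In the early recognition list, 8 of 13 tested genes rose and 4 fell at 6 h at each dose, and 3 rose and 5 fell at 24 h. Without TMM factors, 6 rose and 2 fell at 3 µM and 5 rose and 3 fell at 10 µM at 24 h. The U1-associated LUC7L3 rose by 0.48 ± 0.03 and 0.65 ± 0.03 at 6 h and LUC7L by 0.55 ± 0.03 at 3 µM. DDX46, the helicase that helps U2 onto the branch site, changed by −1.18 ± 0.03 and −1.36 ± 0.03 at 24 h. DDX39B rose by 0.65 ± 0.13 at 10 µM and 6 h and by 0.61 ± 0.13 and 0.75 ± 0.13 at 24 h. Of 13 other tri-snRNP and B complex genes, 9 rose at each dose at 6 h and 0 (3 µM) or 2 (10 µM) fell; without 3 µM replicate 3, 2 fell at 3 µM. PRPF38B rose by 0.89 ± 0.03 and 1.01 ± 0.03, and the kinase PRPF4B by 0.55 ± 0.03 and 0.64 ± 0.03, before standing at −0.43 ± 0.03 and −0.44 ± 0.03 at 24 h. At 24 h 5 of the 13 rose and 4 fell at 3 µM and 6 rose and 5 fell at 10 µM (8 and 2 at 3 µM without TMM factors), with the isomerase PPIH at −0.29 ± 0.04 and −0.30 ± 0.04.

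The LSM ring, the U6 counterpart of the Sm ring, had 2 of 7 genes rising and 2 falling at 6 h at each dose, with LSM6 at −0.35 ± 0.04 and −0.58 ± 0.05, LSM3 at 0.29 ± 0.04 at 3 µM and LSM8 (listed as NAA38) at −0.34 ± 0.03 at 10 µM. At 24 h 1 rose and 2 fell at 3 µM and 1 rose and 3 fell at 10 µM, with LSM4 at −0.19 ± 0.04 and −0.27 ± 0.04 and LSM5 at 0.14 ± 0.03 at 3 µM. These small counts moved with the setting: over the alternatives 1 to 4 LSM genes rose and 2 to 4 fell at 6 h, and 1 to 3 rose and 1 to 4 fell at 24 h. The libraries that moved them were DMSO replicate 2, 3 µM replicate 2 and 10 µM replicates 2 and 3 at 6 h and DMSO replicate 1 at 24 h. Of 5 exon junction complex genes, RBM8A rose by 0.56 ± 0.04 and 0.54 ± 0.04 at 6 h, whereas MAGOHB, whose protein pairs with it, changed by −0.84 ± 0.04 and −0.78 ± 0.04. At 24 h RBM8A stood at 0.31 ± 0.04 and 0.27 ± 0.04 and MAGOHB at −0.15 ± 0.04 and −0.20 ± 0.04. In this complex, 2 genes rose and 2 (3 µM) or 3 (10 µM) fell at 6 h, and 1 rose and 1 fell, then 2 rose and 2 fell, at 24 h. The 6 h counts were the same under all alternatives, and those at 24 h ranged from 1 to 4 rising and 0 to 2 falling. At 10 µM each became 1 without either DMSO library or 10 µM replicate 1.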

How the data were processed

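Each deposited file held the counts of read pairs per gene symbol in 1 of 16 libraries, made by the authors with STAR, HTSeq and edgeR on hg19 (GRCh37), per the submitters' processing notes. Libraries were strand-specific, poly-A selected and read as pairs of 100 bases, per the labels' protocols. The strand setting, the annotation and the tools' versions: not given in the sources used here. Entries that name no gene (16.9 to 20.2% of pairs) were kept out.

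The filter was edgeR's filterByExpr (version 4.0.16, minimum count 10, total 15). Counts were TMM-scaled, 6 group means were fitted to the 16 libraries together, and contrasts took the quasi-likelihood test in robust form (R 4.3.3), two-sided, Benjamini-Hochberg adjusted over 22007 genes for each of 9 comparisons. The fit was also run on simulated data, with the same spread per gene in every group and independent libraries. That run cannot show errors from unequal spread between groups or from shifts shared by libraries. Alternatives were DESeq2 1.42.0, limma-voom (limma 3.58.1), RLE or no scaling, 2 other filters, only the groups compared, a replicate block and each library left out. The same alternatives were run for the counts by role and list after the data were seen. Exons, lengths and overlaps came from GENCODE 29 and promoters from RefSeq GRCh38.p14.

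The members and lists were chosen with earlier results of these data known. Values per library are given for the 3 largest rises and falls against DMSO and the 2 largest elsewhere, and for SF3A1, SF3B1 and others that moved against their role group or were added after their values were seen. Of each other list, the 2 largest changes per comparison with DMSO are named.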

Additional observations from a re-analysis of the deposited data

Results flagged for a closer look

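The effect of CC-671 differed between 6 h and 24 h in a test of the difference itself (edgeR's quasi-likelihood interaction test, adjusted over all genes). At 3 µM, 9 members had a higher and 15 a lower effect at 24 h than at 6 h, and at 10 µM 13 had a higher and 16 a lower effect. Among all genes, 25.6% had a higher and 23.7% a lower effect at 3 µM, and 27.6 and 26.4% at 10 µM, so the 9 higher at 3 µM are near the background. SF3A3 was higher at 24 h by 0.70 on the log2 scale at 3 µM and 0.93 at 10 µM, and SNRPA1 by 0.49 and 0.59. PRPF8 differed by −0.66 and −0.88, and U2AF2 by −0.65 and −0.72. For SF3A3 all 6 treated libraries were below both vehicle libraries at 6 h, and the groups overlapped at 24 h. For U2AF2 all 6 were above vehicle at 6 h and all 6 below it at 24 h.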

How the results depend on the processing

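Over the members' fold changes, 4235 of the alternative values kept the call and direction, 149 lost the call, 85 gained one and 11 reversed, all 11 without TMM factors at 24 h. The reversed values at 3 µM were 0.10 for CDC5L, 0.0068 for EFTUD2, 0.014 for PRPF31, 0.012 for PRPF6, 0.10 for SF3A3, 0.014 for SNRPA1 and 0.0845 for SNRPB2. At 10 µM they were 0.10 for SF3A3, 0.0776 for SNRNP70, 0.0768 for SNRPD1 and 0.0283 for U2AF1. Without TMM factors the 24 h counts were 17 rising and 7 falling at 3 µM and 17 rising and 9 falling at 10 µM, beside an upward shift in the median of all genes. Calls that held under every alternative run numbered 17 of 18 rises and 11 of 13 falls at 3 µM and 6 h, 15 of 18 and 16 of 16 at 10 µM and 6 h, 8 of 10 and 7 of 16 at 3 µM and 24 h, and 7 of 9 and 9 of 17 at 10 µM and 24 h.

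Between doses at 6 h, 2 members rose with limma-voom, 2 with a filter of 1 CPM in 5 libraries, and 1 to 2 with a library left out. At 24 h, 2 rose and 9 fell when only the groups compared were fitted, and 0 to 1 rose and 1 to 2 fell with a library left out. In DMSO over time, 5 rose when only the groups compared were fitted, and 1 to 3 rose and 8 to 15 fell with a library left out. Leaving out a library reduces the samples; the cause of the other shifts was not tested. Where an arm was left with 1 library, it was assumed to vary like the other groups.

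Over all genes tested, same-numbered treated libraries showed little correlation in their deviations from group means (r −0.062 to 0.081 in 18 pairs, none over 0.1). At 6 h, however, replicate 2 of both doses was lowest for PRPF8 (351 and 353 CPM) and SNRNP200 (451.5 and 447 CPM). It was highest at both doses for SNRPB (275 and 289 CPM) and SNRNP70 (392 and 391 CPM). SNRPD3 was highest in replicate 2 only at 10 µM. Pairing by number was thus not settled. The correlation took in no DMSO library and cannot show that the samples are unpaired. With a replicate block, 310 of 315 member values kept their call and 5 lost it. The replicate block gave 16 in place of 18 rises at 10 µM and 6 h and left 18 rises and 13 falls at 3 µM and 6 h.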
